A study of Mus musculus with 2 samples.

Results

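Secretory products of the mouse prostate lobes were followed in single-cell RNA-seq libraries of prostate tumour tissue. They are Sbp, Sbpl, Msmb, Pbsn, Spink1, Tgm4, Scgb2b27 and the genes known only by the symbols 9530053A07Rik, 5430419D17Rik and 9530002B09Rik, that is 10 of the 28000 features that both libraries hold. The 10 genes were chosen by their levels in DoubleTg luminal cells and their loss in TripleTg, as seen in these same libraries, so those levels are given as a description, without a test. DoubleTg mice (hHGFtg:H11hMET/+:PBCre4) carried a human HGF transgene active throughout the body and a human MET transgene (hMETtg) switched on by Cre in prostate epithelium. TripleTg mice (hHGFtg:H11hMET/+:Ctnnb1L(Ex3)/+:PBCre4) carried the same 3 alleles and a Ctnnb1 allele whose exon 3 is removed by the same Cre, which stabilises β-catenin. Both genotypes thus shared hHGFtg, hMETtg and PBCre4, and no library without them was analysed here. The Cre is driven by a probasin promoter, and Pbsn, the probasin gene, is itself 1 of the 10 genes. The labels call the DoubleTg tissue prostatic adenocarcinoma and the TripleTg tissue prostatic carcinoma, and neither the age nor the number of mice behind each library is given in the sources used here. The tissue was digested in medium that held dihydrotestosterone. There was 1 library per genotype, so genotype, animal, litter, tissue sampled and library cannot be told apart, and no difference between the libraries has a replicate check.

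The kept DoubleTg library held 10598 cells and the TripleTg library 9492 cells, with medians of 16761 and 20097 unique molecular identifiers (UMIs), each of which marks 1 captured RNA molecule. Levels are UMIs of a gene per 1000000 UMIs of the summed cells (CPM). The UMIs come from the 3′ end of a transcript, so levels of different genes were set side by side without division by length. Intervals are 95% intervals and cover counting error only. Clusters made in each library on its own gave 4935 luminal-like cells in 8 DoubleTg clusters and 4861 in 9 TripleTg clusters. The 8 DoubleTg clusters had the 5 epithelial markers in a mean share of 0.949 to 0.999 of cells and the 7 luminal markers in 0.649 to 0.739. The 9 TripleTg clusters had them in 0.981 to 0.996 and 0.537 to 0.622. No cluster is common to both libraries, so different clusters make up the luminal-like class in each. No label names a lobe, so clusters are called by their number and leading genes.

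The prostate secretes the fluid that becomes part of the semen, and in the mouse its separate lobes make different proteins, most of them under androgen control. Spermine-binding protein, the product of Sbp, is known from the ventral lobe, probasin from the dorsal and lateral lobes, and the prostate transglutaminase Tgm4, which cross-links semen proteins into the copulatory plug, from the anterior lobe or coagulating gland. Msmb encodes β-microseminoprotein, Spink1 a Kazal-type inhibitor of trypsin-like proteases, Pbsn a lipocalin and Scgb2b27 a secretoglobin. Androgens, like glucocorticoids, act through response elements in DNA that are built from the short motif AGAACA and its reverse complement TGTTCT.

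Sbp and Sbpl lie side by side on chromosome 17 of GRCm38 in opposite orientation, Sbp (ENSMUSG00000024128) from 23941672 to 23945607 on the plus strand and Sbpl (ENSMUSG00000024125) from 23953084 to 23955274 on the minus strand. Pbsn (ENSMUSG00000000003) lies on chromosome X from 77837901 to 77853623, Tgm4 (ENSMUSG00000025787) on chromosome 9 from 123034726 to 123067561 and Msmb (ENSMUSG00000021907) on chromosome 14 from 32142023 to 32158370. On chromosome 7 lie 9530053A07Rik (ENSMUSG00000078776, 28129466 to 28164811), Scgb2b27 (ENSMUSG00000066584, 34011921 to 34013942) and 5430419D17Rik (ENSMUSG00000006204, 131174402 to 131306451). The gene 9530002B09Rik (ENSMUSG00000023263) lies on chromosome 4 from 122689275 to 122705129. All 10 are annotated as protein coding. The spans are those of GENCODE release M21.

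The promoter windows below are the 300 bases around a start site, in RefSeq on GRCm38.p6, written 5′ to 3′ along the strand of the gene. They are shown because the 10 genes fell together in TripleTg, and they cover products of DoubleTg clusters 4 and 7, described next. Capitals mark every match to AGAACA or TGTTCT, and distances run from the first base of the match to the start site.
Sbp (chr17:23941668-23941967, plus strand, the third of 3 annotated starts): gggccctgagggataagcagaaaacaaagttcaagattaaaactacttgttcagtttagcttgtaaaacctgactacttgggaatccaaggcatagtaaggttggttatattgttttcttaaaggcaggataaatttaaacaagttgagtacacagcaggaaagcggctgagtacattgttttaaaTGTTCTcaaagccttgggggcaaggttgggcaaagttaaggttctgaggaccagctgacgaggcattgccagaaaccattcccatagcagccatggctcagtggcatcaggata
Sbpl (chr17:23955224-23955523, minus strand): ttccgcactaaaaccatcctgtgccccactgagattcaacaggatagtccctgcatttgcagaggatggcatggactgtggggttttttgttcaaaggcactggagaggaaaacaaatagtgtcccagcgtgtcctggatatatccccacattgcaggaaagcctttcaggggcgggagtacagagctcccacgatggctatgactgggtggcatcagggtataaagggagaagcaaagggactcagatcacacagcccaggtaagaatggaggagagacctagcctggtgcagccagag
Pbsn (chrX:77853451-77853750, minus strand): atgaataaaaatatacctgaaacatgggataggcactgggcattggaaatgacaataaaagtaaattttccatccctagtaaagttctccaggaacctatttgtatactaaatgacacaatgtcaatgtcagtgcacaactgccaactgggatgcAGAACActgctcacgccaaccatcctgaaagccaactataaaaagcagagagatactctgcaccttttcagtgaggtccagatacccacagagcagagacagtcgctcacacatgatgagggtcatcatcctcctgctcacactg
Tgm4 (chr9:123034491-123034790, plus strand): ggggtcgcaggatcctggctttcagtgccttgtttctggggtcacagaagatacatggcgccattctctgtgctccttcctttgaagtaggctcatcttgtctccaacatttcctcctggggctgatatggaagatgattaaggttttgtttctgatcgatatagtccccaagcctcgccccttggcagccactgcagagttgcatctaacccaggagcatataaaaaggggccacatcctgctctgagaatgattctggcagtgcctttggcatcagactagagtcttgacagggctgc
9530053A07Rik (chr7:28129216-28129515, plus strand): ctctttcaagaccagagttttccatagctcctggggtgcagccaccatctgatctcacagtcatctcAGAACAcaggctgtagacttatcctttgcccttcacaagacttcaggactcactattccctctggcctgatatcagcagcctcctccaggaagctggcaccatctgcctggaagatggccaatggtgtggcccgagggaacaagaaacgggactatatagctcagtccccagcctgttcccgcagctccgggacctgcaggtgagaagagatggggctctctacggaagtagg
9530002B09Rik (chr4:122689009-122689308, plus strand): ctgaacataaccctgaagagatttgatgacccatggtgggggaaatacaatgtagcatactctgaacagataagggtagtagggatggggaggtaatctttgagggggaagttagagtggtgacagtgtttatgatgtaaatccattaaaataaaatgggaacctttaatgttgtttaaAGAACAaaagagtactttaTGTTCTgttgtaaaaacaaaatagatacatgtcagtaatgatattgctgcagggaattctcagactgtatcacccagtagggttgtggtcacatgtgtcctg

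RefSeq windows were found for 7 of the 10 genes, the 6 above and Scgb2b27, and none was used here for Msmb, Spink1 and 5430419D17Rik. The Pbsn window held AGAACA 95 bases before the start and that of 9530053A07Rik held it 183 bases before. The 9530002B09Rik window held AGAACA 71 bases and TGTTCT 52 bases before the start. Of the 3 Sbp windows, the one shown held TGTTCT 64 bases before its start, and the other 2 held neither. No match was found for Sbpl, Tgm4 or Scgb2b27. Of all 32851 windows of this length, 6233 (19.0%) held either motif, and of the 9 windows of the 7 genes 4 did, given as a description. AGAACA followed after any 3 bases by TGTTCT, the full palindrome, was found in 3 of all windows and in none of those of the 7 genes. Neither the forkhead motif TGTTTAC (3.65% of all windows, both strands) nor the TCF/LEF motif CTTTGAT (3.73%) was found in them. The windows of different genes were at most 54.4% identical once aligned, and the Sbp and Sbpl windows reached at most 53.7%. A match is a run of letters and not a measured site, and 300 bases leave out most of the regulatory sequence of a gene.

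The Sbp and Sbpl transcripts, by contrast, were near-copies. The first pair of annotated transcripts was 86.0% identical over 893 aligned bases, with a longest identical run of 154 bases. A short Sbp transcript of 368 bases was 98.5% identical to Sbpl over 275 bases. How reads of the shared stretches were divided between the 2 genes was not given in the sources used here, so their separate levels are uncertain.

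The comparison within DoubleTg asked which luminal cells made each product. Each of the 10 products was highest, among the 8 luminal-like clusters, in 1 of 3 clusters, and the 3 groups of products were led by Sbp, by 9530053A07Rik and by Msmb. Cluster 4 (716 cells, led by Ibsp, Caln1 and Kcnk3) was highest for 6 products, cluster 7 (394 cells, led by Gm37223, A630095E13Rik and 9530003J23Rik) for 3 and cluster 11 (620 cells, led by Pcp4, Defb50 and Defb1) for 1. The 10 genes were left out of the genes used for clustering, but genes that vary with them were used, so the levels by cluster describe the clusters and were not tested. With all 10 genes summed, they made up 9.83% of the UMIs of the luminal-like cells.

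Sbp was the most abundant of them. Its level in cluster 4 was 288978 CPM (288805 to 289150), 17.6-fold above the next luminal-like cluster, cluster 3 with 16459 CPM. Clusters 11, 5 and 14 had 16400, 6044 and 3924 CPM, and clusters 15, 12 and 7 had 1686, 1273 and 1065 CPM. Cluster 4 held 14.5% of the luminal-like cells and 92.3% of their Sbp UMIs. At an equal depth of 5000 UMIs per cell, the median cell of cluster 4 had 1378 Sbp UMIs and its 10th and 90th percentile cells had 10 and 2278, so cells with little Sbp were also in this cluster. In the other 7 clusters the median cell had 4 to 6 Sbp UMIs, and the sums of some rested on few cells: the highest 5% of cells held 94.7% of the Sbp UMIs of cluster 11 and 85.0% of those of cluster 3.

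Sbpl followed Sbp in the same clusters, with 17572 CPM in cluster 4, 864 CPM in cluster 3 and 114 CPM in cluster 7, where it was lowest. In the luminal-like cells there were 6.06 Sbpl UMIs for each 100 Sbp UMIs (6.05 to 6.08). The ratio was 6.08 in cluster 4 and 4.88 (4.81 to 4.96) in cluster 11, but 10.7 (10.1 to 11.3) in cluster 7 and 10.9 (10.5 to 11.4) in cluster 12. It was also 10.7 (10.3 to 11.1) in basal-like cluster 18. By class, the ratio was 8.58 (7.92 to 9.28) in macrophage-like, 10.1 (8.81 to 11.5) in dendritic-like and 9.19 (8.95 to 9.44) in basal-like cells. T and NK-like and fibroblast-like cells had 6.07 (5.82 to 6.32) and 5.11 (4.99 to 5.22). The ratio therefore was not the same in every cluster or class, by more than counting error.

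Spink1, the protease inhibitor, was the other major product of cluster 4, with 84763 CPM (84669 to 84856) there and 8600 CPM in cluster 3, a 9.86-fold difference. It stood at 306 CPM in cluster 7. Cluster 4 held 89.4% of the luminal-like Spink1 UMIs, and its median cell had 321 of them at 5000 UMIs. Scgb2b27 was rare. It reached 427 CPM in cluster 4 and at most 25.4 CPM in any other luminal-like cluster, and 5% of the cells of cluster 4 held 91.4% of it, with a median of 0 UMIs per cell at 5000 UMIs.

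The remaining products of cluster 4 were spread more widely. The gene 9530002B09Rik stood at 13590 CPM in cluster 4, 7454 in cluster 7, 5278 in cluster 3 (388 cells, led by Gsdmc2, Cxcl5 and Ccl20) and 4348 in cluster 11, a 1.82-fold step from the first to the second. Its lowest luminal-like level was 961 CPM, in cluster 15 (1225 cells, led by Msln, Aldh1a3 and Ctse). The gene 5430419D17Rik ran from 718 CPM in cluster 4 to 161 CPM in cluster 12 and then 19.5 CPM (17.1 to 22.2) in cluster 7. Clusters 11 and 3 had 380 CPM (372 to 388) and 363 CPM (353 to 373) of it. All 10 products together took 40.8% of the UMIs of cluster 4, with 38.8% in its median cell and 72.2% in its highest.

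Cluster 7 was the one with 9530053A07Rik, Pbsn and Tgm4. The gene 9530053A07Rik had 30158 CPM (30061 to 30256) there, 3885 CPM in cluster 12 (574 cells, led by Srpx, Prr9 and Tcaf2) and 26.8 CPM in cluster 4. Tgm4 had 14549 CPM in cluster 7, 3034 CPM in cluster 12, 353 CPM in cluster 5 and 15.8 CPM (14.6 to 17.2) in cluster 4. Cluster 7 thus held 69.5% of the luminal-like Tgm4 UMIs and cluster 12 24.2%. Pbsn had 15119 CPM (15050 to 15188) in cluster 7, 3186 CPM in cluster 11 and 1443 CPM in cluster 12, and was lowest in cluster 3, at 82.1 CPM. The median cell of cluster 7 had 143 UMIs of 9530053A07Rik, 67.5 of Tgm4, 57.5 of Pbsn and 33 of 9530002B09Rik at 5000 UMIs, and in the median cell of cluster 4 the first 3 were at 0. These products took less of the cell than those of cluster 4: the 10 genes made up 6.93% of the UMIs of cluster 7.

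Msmb was highest in cluster 11 and was also found in several other clusters. It stood at 22267 CPM (22207 to 22328) in cluster 11, where the median cell had 87 UMIs at 5000, and at 5626 CPM in cluster 14 (870 cells, led by Alb, Ppp1r1b and Reg3b). Cluster 5 (148 cells, led by interferon-induced genes such as Ifit3) had 4990 CPM and cluster 15 had 3490 CPM, and cluster 7 was lowest with 505 CPM. Cluster 11 held 51.8% of the luminal-like Msmb UMIs, cluster 15 17.02% and cluster 14 16.7%. Cluster 15, with 24.8% of the luminal-like cells, had the smallest share of the 10 products, 0.801% of its UMIs.

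**Figure D1:**
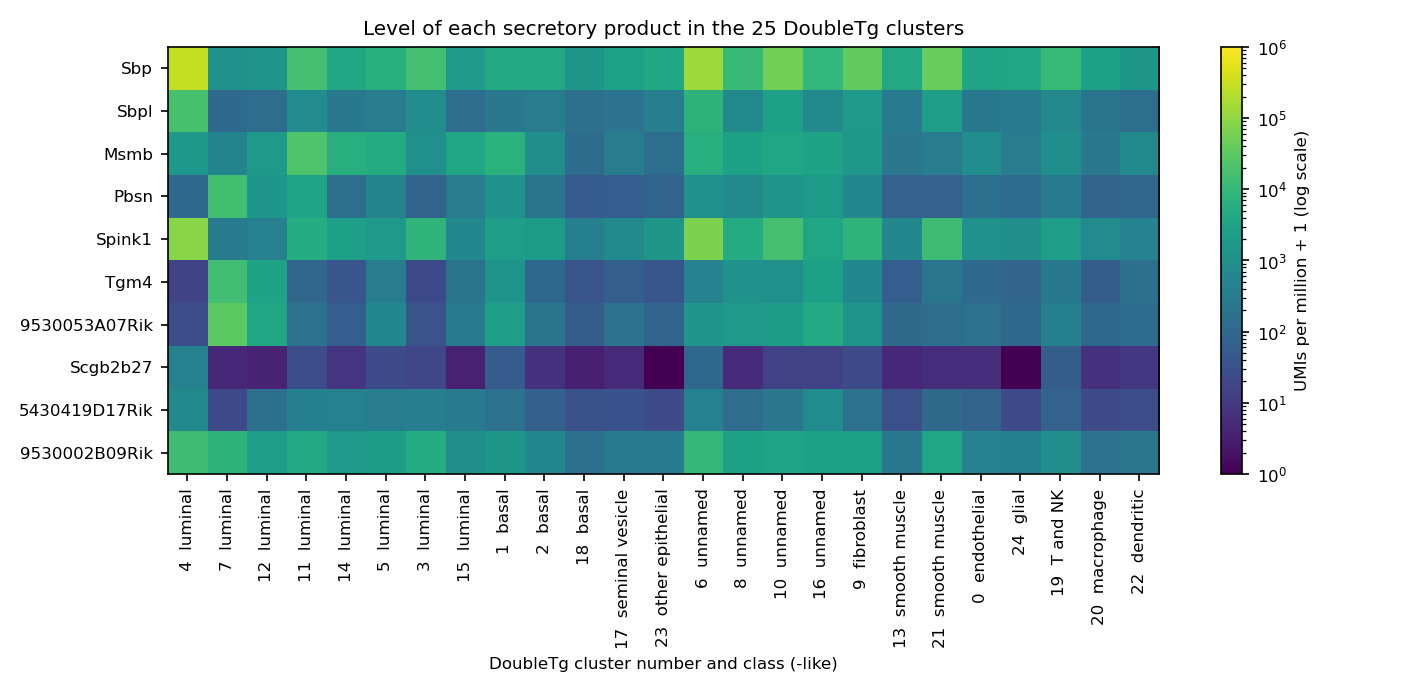
Level of each of the 10 secretory products (rows) in the 25 DoubleTg clusters (columns, cluster number and class), as CPM plus 1 on a log colour scale. Sbp, Sbpl and Spink1 peak in luminal-like cluster 4, 9530053A07Rik, Tgm4 and Pbsn in cluster 7 and Msmb in cluster 11, and the unnamed shallow cluster 6 also holds Sbp and Spink1.

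Unnamed clusters 6 and 10 also carried the products of cluster 4. Cluster 6 (643 cells) was led by haemoglobin genes, with Crabp1 and Ibsp also among its top 10, and had a median of 1483 UMIs per cell. Sbp stood at 131833 CPM and Spink1 at 63782 CPM there, and the 10 genes made up 22.2% of its UMIs. Cluster 10 (225 cells, led by Jchain, Mzb1 and Cd79a, with a median of 1058 UMIs) had 54146 CPM of Sbp and 16585 CPM of Spink1, and the 10 genes made up 8.48% of its UMIs, but the highest 5% of its cells held 96.3% of its Sbp. These shallow cells were kept out of the luminal-like class.

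The next comparison asked whether single luminal cells made 1 product or several. Of 4707 luminal-like cells with at least 5000 UMIs, each thinned to 5000, 4212 had at least 10 UMIs of the 10 genes. In the median of these cells, 59.6% of the product UMIs belonged to the most abundant product, with the 10th and 90th percentile cells at 35.6% and 83.1%. Sbp led 1379 cells, Msmb 1365, 9530002B09Rik 517, 9530053A07Rik 463, Tgm4 214, Spink1 169, Pbsn 68, 5430419D17Rik 35 and Sbpl 2. Scgb2b27 led none. The mean level of each product in immune-like cells, a background described below, was then subtracted. For Sbp this mean was 18.0 UMIs, above the immune-like median of 10. The median cell of the luminal-like clusters other than cluster 4 held only 4 to 6, so more was subtracted than such cells held. The subtraction left 3282 cells with at least 10 UMIs, in which the leading product held a median of 74.0%. Msmb now led 1313 cells and Sbp 588, so most cells led by Sbp before were not led by it after, while 9530053A07Rik led 467, 9530002B09Rik 468, Tgm4 218 and Spink1 147.

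After the subtraction, the cluster with most cells led by a product was the one with its highest level for Sbp, Spink1, Msmb, Pbsn and 9530053A07Rik, but not for Tgm4, 9530002B09Rik, 5430419D17Rik (15 cells) or Sbpl (1 cell). Of those led by Sbp, 474 of 588 (80.6%) were in cluster 4, and of those led by Tgm4, 152 of 218 (69.7%) were in cluster 12, and of those led by 9530002B09Rik, 152 of 468 (32.5%) were in cluster 3. Of the 467 cells led by 9530053A07Rik, 254 were in cluster 7. Msmb-led cells were spread, with 471 of 1313 (35.9%) in cluster 11. The cells that no product led numbered 1425, and 776 of these (54.5%) were in cluster 15.

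At the same depth of 5000 UMIs, cells led by different products differed in the share with a hMETtg UMI. It was 79.8% (73.9 to 84.9) of Tgm4-led cells, 75.4% (73.0 to 77.7) of Msmb-led cells, 70.7% (66.4 to 74.8) of 9530002B09Rik-led cells and 64.7% (60.1 to 69.0) of 9530053A07Rik-led cells. In Pbsn-led cells it was 46.2% (33.7 to 59.0) and in Sbp-led cells 42.9% (38.8 to 47.0), and in Spink1-led cells 54.4% (46.0 to 62.6). It was 73.1% (70.7 to 75.3) in the 1425 cells left with fewer than 10 product UMIs, close to that of Msmb-led cells, and 10.7% in immune-like cells. The 10 products took a median of 42.6% of the UMIs of Sbp-led cells and 0.92% of those of Tgm4-led cells, and the part of this in the hMETtg shares was not tested. Summed over these thinned cells, hMETtg stood at 232 CPM in Sbp-led, 397 in Pbsn-led, 517 in Msmb-led and 761 in Tgm4-led cells.

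Pairs of products were then compared. A cell was called high for a product when its thinned count was above the 99th percentile of the immune-like cells and at least 3 UMIs. The percentile differed by product, being 117.3 UMIs for Sbp, 66.5 for Spink1, 28.7 for Msmb and 3.1 for Pbsn. The same genes had 95th percentiles of 25.5, 9.5, 4 and 2, so the cut rested on few immune-like cells. By this rule 1714 of 4707 cells (36.4%) were high for no product, 949 for 1, 695 for 2, 476 for 3, 615 for 4, 205 for 5, 46 for 6, 6 for 7 and 1 for 8, so cells with several products were common. The count of cells high for both products of a pair was divided by the count that the product of their separate shares would give. Of 45 pairs, 21 were below 0.5 and 17 above 2.

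The products fell into the same blocks by this measure. Sbp and Sbpl were high together in 571 cells, of 604 and 573 high for each, 7.77 times the product of the shares. Sbp and Spink1 shared 499 cells (82.6% of those high for Sbp, 87.7% of those high for Spink1), a ratio of 6.83, and 52 of the 55 cells high for Scgb2b27 were high for Sbp. Tgm4 and 9530053A07Rik shared 575 cells, 76.1% of the first and 88.5% of the second, a ratio of 5.51. Pbsn shared 479 cells with Tgm4 (3.12) and 447 with 9530053A07Rik (3.39), and it also shared 422 with Msmb (1.96). Pbsn was thus high in cells of both the 9530053A07Rik and the Msmb group. The gene 9530002B09Rik was high in 584 of 604 cells high for Sbp (2.97), 328 of 650 cells high for 9530053A07Rik (1.55) and 321 of 1063 cells high for Msmb (0.93), so it was found in cells of every group.

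Most pairs across the groups were seldom high in 1 cell, except those of 9530002B09Rik, Pbsn with Msmb, and 5430419D17Rik with Msmb (242 cells, 1.31). Sbp and 9530053A07Rik were both high in 6 cells (ratio 0.07), Sbp and Tgm4 in 13 (0.13), Sbp and Pbsn in 28 (0.23) and Sbp and Msmb in 34 (0.25). Msmb and Tgm4 were both high in 23 cells (0.13), and so were Msmb and 9530053A07Rik (0.16). None of the 55 cells high for Scgb2b27 was high for Tgm4, where the shares would give 8.83 cells. The Spearman coefficient across the 4707 cells was 0.65 for Tgm4 with 9530053A07Rik, 0.54 for Sbp with Spink1, −0.18 for Sbp with Msmb and −0.23 for Msmb with Tgm4, as a description over cells of 1 library that share its background.

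**Figure D2:**
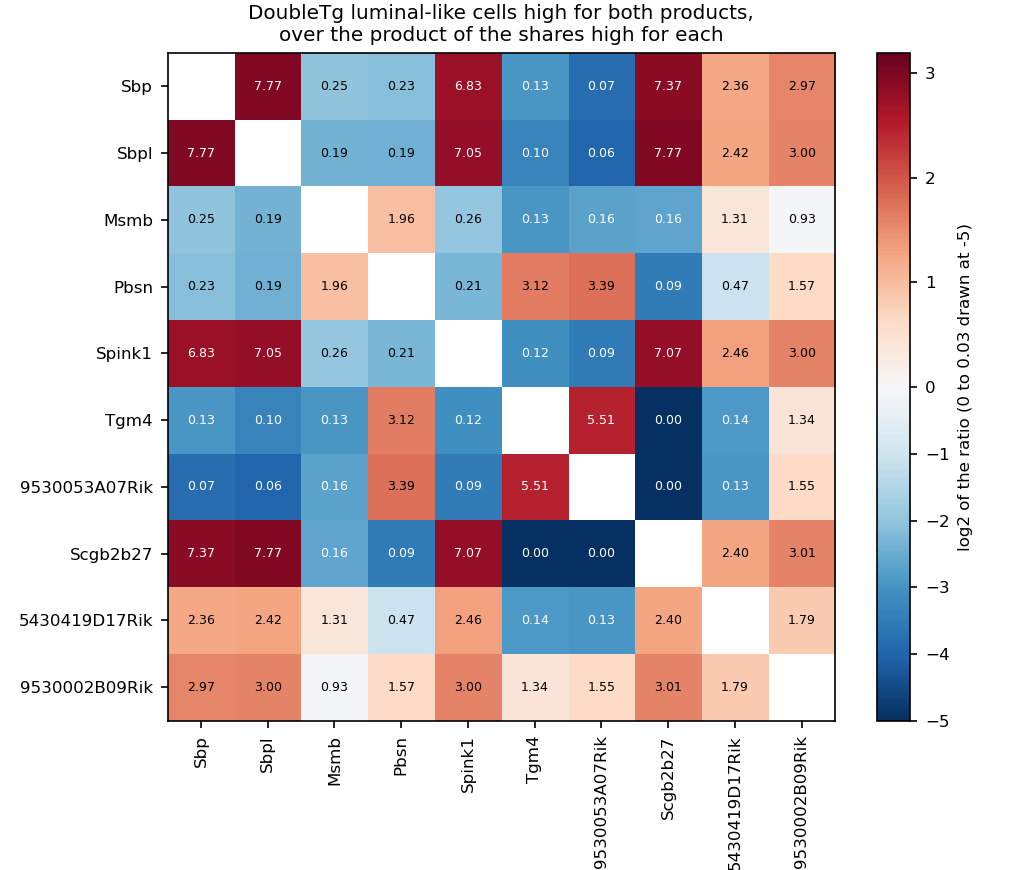
For each pair of products, the number of DoubleTg luminal-like cells high for both, divided by the number given by the product of the 2 separate shares, over 4707 cells thinned to 5000 UMIs; the colour is the log2 of the printed ratio. Sbp, Sbpl, Spink1 and Scgb2b27 form 1 block with ratios near 7, Pbsn, Tgm4 and 9530053A07Rik another, and pairs across the blocks lie below 0.3.

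Cells that should not make these products also held their RNA in DoubleTg. In the 808 immune-like cells (macrophage-like, dendritic-like, and T and NK-like), the 10 genes made up 0.942% of the UMIs (0.936 to 0.949), against 9.83% in luminal-like cells. The classes differed, the share being 1.67% for T and NK-like cells, 0.417% for the macrophage-like ones and 0.345% for the dendritic-like ones. The T and NK-like value rested on few cells: 4 cells had over 10% of their UMIs from these genes, and without them the immune-like share was 0.510%. The highest 5% of T and NK-like cells held 79.9% of their Sbp UMIs. The epithelial marker Krt8 was also highest in T and NK-like cells but not in the same order after that, being at 1298 CPM in T and NK-like cells (74.0% of cells), 386 CPM in dendritic-like and 191 CPM in macrophage-like cells. Ptprc, which marks leukocytes, was found in 91.8% of the T and NK-like, 85.8% of the macrophage-like and 72.9% of the dendritic-like cells. In the 34 immune-like cells without a UMI of Epcam, Krt8 or Krt18, the products were still at 0.418% (0.391 to 0.446).

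The share of cells with a UMI said little about which cells made Sbp. At 5000 UMIs, an Sbp UMI was found in 99.7% of immune-like cells and 97.6% of luminal-like cells, and a Spink1 UMI in 91.2% and 76.3%. A UMI of these 2 genes is therefore read as background rather than as expression. The same holds for Msmb, whose shares were 64.8% in immune-like and 61.95% in luminal-like cells. The shares were, for Pbsn, 34.0% and 43.7%, for Tgm4 23.0% and 31.8% and for 9530002B09Rik 60.5% and 87.4%. The gene 5430419D17Rik stood apart, with a UMI in 9.84% of immune-like cells (7.72 to 12.3) and 63.2% of luminal-like cells (61.8 to 64.6). The unthinned cells had medians of 8289 UMIs in the immune-like and 35157 in the luminal-like class, and before thinning an Sbp UMI was found in 99.9% and 99.98% of them. By level, the median macrophage-like cell had 9 Sbp UMIs at 5000 and the median T and NK-like cell 13, more than the 4 of the median luminal-like cell of cluster 7.

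The level of each product in a class was also divided by its level in all kept cells of the library. In macrophage-like cells this was 5.0% to 8.8% for the 10 genes, a narrow range for products whose library levels differ from 48365 CPM for Sbp to that of Scgb2b27. In T and NK-like cells it was 19.5% to 24.4% for 8 products, with Spink1 at 15.8% and Scgb2b27 at 79.9%. Dendritic-like cells ranged from 3.0% for Sbp to 17.1% for Msmb. Fibroblast-like cells (515 cells) were higher, from 33.7% for Scgb2b27 to 71.4% for Sbp, and the highest 5% of them held 95.6% of their Sbp UMIs. Outside the luminal-like class, seminal vesicle-like cluster 17 (126 cells) had 0.454% of its UMIs from the 10 genes, within the range of the immune-like classes.

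**Figure D3:**
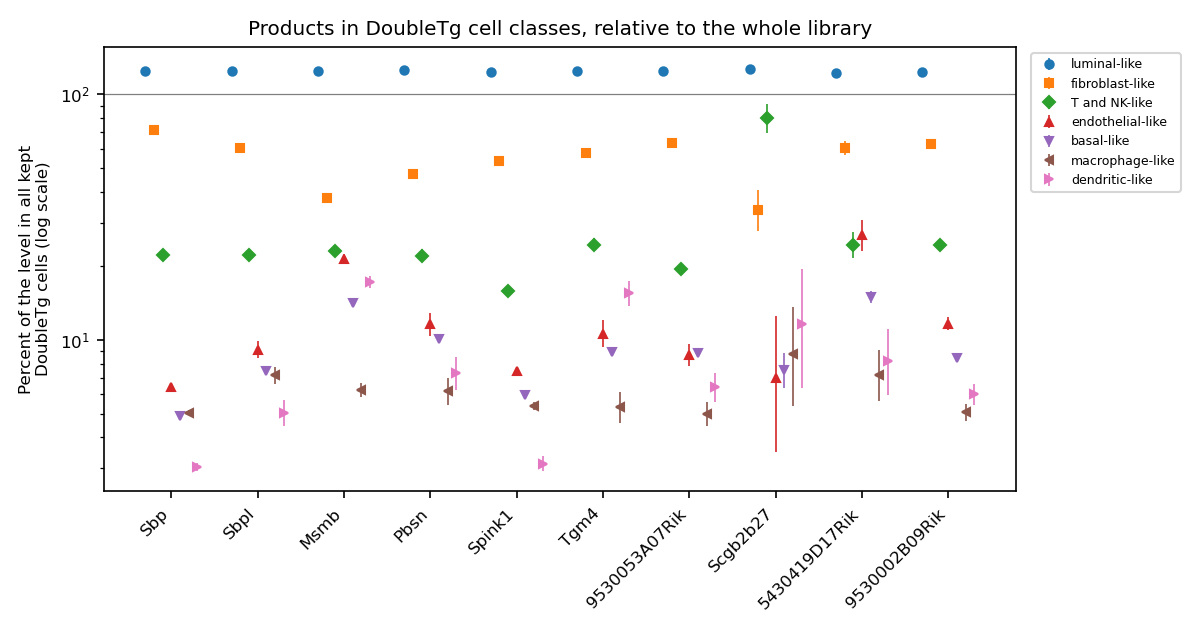
Level of each product in 7 DoubleTg cell classes as a percentage of its level in all kept cells, on a log axis, with 95% counting intervals. Macrophage-like cells lie between 5.0% and 8.8% for all products, T and NK-like cells near 20% for most and fibroblast-like cells between 33.7% and 71.4%, against 123% to 127% in luminal-like cells.

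The comparison of the genotypes asked what remained of the products in TripleTg luminal-like cells. In 4861 cells with 146002703 UMIs, 31015 UMIs (0.0212%) came from the 10 genes, against 9.83% in DoubleTg. In such sums, fewer producing cells and less RNA per cell cannot be told apart. All 10 were at least 4-fold lower in TripleTg. Of the 9053 features with at least 5 CPM in either library 383, or 4.23%, were lower by that much, and nothing is read from this count since the loss was known when the genes were chosen. The median log2 ratio of TripleTg over DoubleTg over the 10 genes was −11.16 (−11.38 to −10.95), with the 2 genes at 0 UMIs set to a bound of 3 UMIs, against 0.00 for all 9053 features. Leaving the 10 genes out of the library totals moved every ratio by −0.15 on the log2 scale.

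Msmb fell from 1006633 UMIs in DoubleTg luminal-like cells to 0 in TripleTg, at least 253955-fold lower. Scgb2b27 fell from 17343 UMIs to 0, at least 4375-fold lower. Sbp had 60430 CPM in DoubleTg and 0.247 CPM (0.173 to 0.341) in TripleTg, from 36 UMIs, a log2 ratio of −17.90 (−18.42 to −17.43). Sbpl had 3663 CPM and then 1 UMI, a log2 ratio of −19.03 (−24.33 to −16.55). These 4 products were thus at or near 0 in the TripleTg cells.

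Spink1 went from 18290 CPM to 3.39 CPM (3.10 to 3.70), a log2 ratio of −12.40, and 5430419D17Rik from 377 to 0.315 CPM, at −10.22. The gene 9530002B09Rik went from 4826 to 11.5 CPM, at −8.71, and Pbsn from 1654 to 10.1 CPM (9.61 to 10.7), at −7.35 (−7.43 to −7.28). The other products of cluster 7 were those that fell least: 9530053A07Rik went from 2464 to 40.1 CPM, at −5.94, and Tgm4 from 1332 to 147 CPM (145 to 149), at −3.18 (−3.20 to −3.16), which is 9.08-fold. The immune-like background also differed between the libraries, the 10 genes being at 0.942% of immune-like UMIs in DoubleTg and 0.00520% in TripleTg. These sets were not alike, since only DoubleTg had T and NK-like cells and only TripleTg had neutrophil-like cells. In macrophage-like cells alone, the shares were 0.417% and 0.00301%. With the immune-like level of each library subtracted, the median log2 ratio was −11.73. Spink1 then went to 0 UMIs in TripleTg, 9530002B09Rik to −11.92 and Pbsn to −8.30, while Tgm4 stayed at −3.24. The values for 9530002B09Rik and Pbsn rested on 1 neutrophil-like cell, which held 64 of the 77 and 38 of the 40 UMIs of these genes in TripleTg immune-like cells. Without it they were −8.78 and −7.23, with 9.77 and 9.85 CPM left, Spink1 was still at 0 and the median was −10.79.

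**Figure D4:**
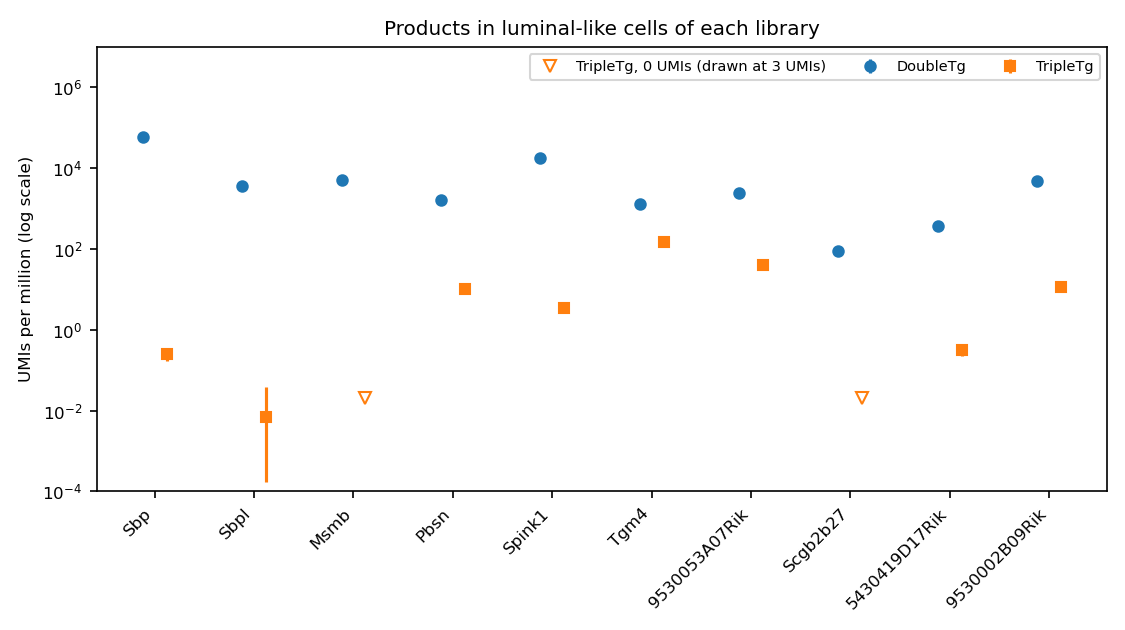
Level of each product in the luminal-like cells of DoubleTg (circles) and TripleTg (squares), in CPM on a log axis, with 95% counting intervals; open triangles mark 0 UMIs, drawn at 3. The 10 DoubleTg levels lie above every TripleTg level of the same gene, and Tgm4 and 9530053A07Rik are the highest TripleTg products.

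Tgm4 was the product with most remaining UMIs in TripleTg luminal-like cells, and it was found in several clusters there. Cluster 2 (771 cells, led by Coch, Pnliprp1 and Defb50) had 426 CPM (417 to 435), cluster 1 (1190 cells, led by Rnase1, Car8 and Slc39a4) had 227 CPM and cluster 0, led by proliferation genes such as Ube2c and Birc5, had 165 CPM. Cluster 4 (622 cells, led by Defa22, Gm15293 and Gm15315) had 8.98 CPM. Of 24080 Tgm4 UMIs in the whole library, 84.9% lay in 481 cells with at least 10 of them, 435 of these luminal-like. Such cells were 179 of 771 (23.2%) in cluster 2, 66 of 443 (14.9%) in cluster 0 and 145 of 1190 (12.2%) in cluster 1, but 4 of 622 (0.643%) in cluster 4. The gene 9530053A07Rik had the same first and second clusters, with 114 CPM in cluster 2 and 63.3 CPM in cluster 1. For 9530002B09Rik the values were 26.4 CPM in cluster 1 and 16.4 CPM in cluster 2. Single cells held 302 and 133 of the 881 UMIs of 9530002B09Rik in cluster 1, so its level there rested in part on few cells.

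The 435 luminal-like cells with 10 or more Tgm4 UMIs were set beside 4423 others with fewer than 10 of both Tgm4 and Pbsn. The groups and the genes compared were chosen after values had been seen, so this is a description. The gene 9530053A07Rik stood at 305 CPM (297 to 314) in the first and 5.30 CPM (4.91 to 5.71) in the second, and 9530002B09Rik at 71.7 and 3.65 CPM, while Sbp and Msmb were at 0 UMIs in the first. Without the 5 of these cells that also had 10 or more Pbsn UMIs, the first group had 228 CPM of 9530053A07Rik and 25.4 CPM (23.0 to 27.9) of 9530002B09Rik, and Axin2 was at 54.02 CPM. Among Wnt target genes, Axin2 stood at 54.0 CPM (50.5 to 57.6) against 88.2 CPM (86.6 to 89.8), Lef1 at 3.43 against 8.26 CPM and Notum at 20.4 against 33.8 CPM, while Nkd1 was at 66.6 against 63.1 CPM. Axin2 in DoubleTg luminal-like cells was 1.61 CPM. The prostate homeobox gene Hoxb13 was higher in the Tgm4 cells, at 35.7 against 16.3 CPM, beside 127 CPM in DoubleTg. For hMETtg the values were 23.8 CPM (21.5 to 26.2) and 24.9 CPM (24.1 to 25.8), beside 498 CPM in DoubleTg. The Tgm4 cells were deeper, with a median of 34103 against 24690 UMIs, and the part of this depth in the grouping was not tested.

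Pbsn remained in a handful of cells. Of 1569 Pbsn UMIs in the TripleTg library, 90.8% lay in 9 cells, 8 of them luminal-like. The highest had 518 Pbsn UMIs with 414 of Tgm4, 585 of 9530053A07Rik and 273 of 9530002B09Rik, in a cell of 42471 UMIs, so it held every product that DoubleTg cluster 7 had above 5000 CPM. It had 3 Axin2 UMIs and no hMETtg UMI. The third cell had 226 Pbsn UMIs, 555 of Tgm4, 623 of 9530053A07Rik and 302 of 9530002B09Rik, and no UMI of Axin2, Lef1, Nkd1 or Notum among its 28570, and 4 of hMETtg. The second cell differed, with 439 Pbsn UMIs, none of the other 3 products, and 10 Axin2 UMIs. Cells 5 and 7 were of this second kind, with 52 and 14 Pbsn UMIs and at most 1 UMI of Tgm4. No Sbp or Msmb UMI was found in any of the 9 cells, and no barcode among them was also present in DoubleTg.

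**Figure D5:**
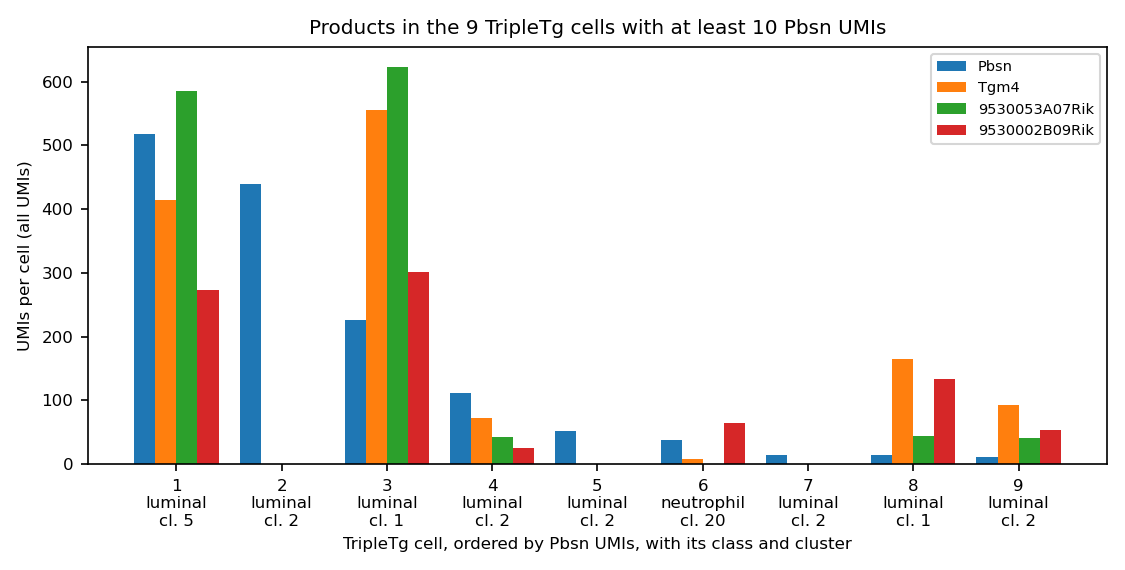
UMIs of Pbsn, Tgm4, 9530053A07Rik and 9530002B09Rik in each of the 9 TripleTg cells with at least 10 Pbsn UMIs, ordered by Pbsn and labelled with class and cluster (bars start at 0). Cells 1, 3, 4, 6, 8 and 9 hold all 4 products, cell 6 being neutrophil-like, and cells 2, 5 and 7 hold Pbsn with at most 1 UMI of the others.

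Spink1 was the product whose TripleTg UMIs lay outside the luminal-like class. Of its 31666 UMIs, 96.7% were in 129 cells with at least 10 each, 3 of them luminal-like, and seminal vesicle-like cluster 19 (139 cells, led by Sva, Svs1 and Svs3b) stood at 3983 CPM. The 10 genes made up 0.400% of the UMIs of that cluster. The other seminal vesicle-like cluster, cluster 11 (423 cells), had 56.8 CPM of Spink1. The TripleTg immune-like cells, 623 in all, had 384 UMIs of the 10 genes, 0.00520% (0.00469 to 0.00575) of their UMIs. Of these, 216 were in the 144 neutrophil-like cells, and 113 of the 216 in 1 such cell of 19567 UMIs. The neutrophil-like cells were a shallow cluster with a median of 2686.5 UMIs in which Krt8 stood at 4234 CPM and Ptprc was found in 35.4% of cells. Sbp had 43 UMIs in the whole library, 27 of them in 1 luminal-like cell, and no UMI was found for Scgb2b27.

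Other secretory genes of the prostate, a list of 16 drawn up with earlier results of these libraries known, were read in the same luminal-like cells, 14 of them at 5 CPM or more. Of these 14, 8 were at least 4-fold lower in TripleTg and 4 at least 4-fold higher, with a median log2 ratio of −2.39. Of all 9053 features, 4.23% were lower and 5.61% higher by that much. The defensin Defb50 fell from 12517 to 66.2 CPM (−7.56), the protease inhibitor Spink5 from 1262 to 9.67 CPM (−7.03), Azgp1 from 284 to 2.36 CPM (−6.91), the apolipoprotein Apof from 132 to 1.55 CPM (−6.41) and Agr2, a disulphide isomerase of secretory cells, from 639 to 16.6 CPM (−5.27). Pigr, which carries antibodies across epithelia, was at −2.66, the chaperone Clu at −2.13 and Wfdc2 at −1.85. The lipase-related Pnliprp1 went the other way, from 5.66 to 69.4 CPM (3.62), and so did Lcn2, an iron-carrier-binding lipocalin, from 62.8 to 660 CPM (3.40). Ceacam10 and Ren1 were the other 2 genes higher by 4-fold.

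The seminal vesicle list of 8 genes had 7 at 5 CPM, of which 5 were at least 4-fold higher in TripleTg luminal-like cells and none 4-fold lower, beside 5.61% and 4.23% of all features, with a median log2 ratio of 6.51. Svs4 went from 3.12 to 746 CPM, Svs5 from 26.1 to 457 CPM and Svs2 from 33.0 to 77.4 CPM (1.23). Seminal vesicle-like cells stood at 218281 CPM of Svs4 in TripleTg cluster 19 and at 10114 CPM in DoubleTg cluster 17, and the part of free RNA from them in the luminal-like values was not tested. Among 8 genes of the androgen axis, 6 reached 5 CPM and 2 of these were 4-fold lower and 1 higher, beside 4.23% and 5.61% of all features, with a median of −0.52. The lower ones were Fkbp5, a co-chaperone induced by androgen, from 53.7 to 2.30 CPM (−4.55), and Hoxb13, from 127 to 18.6 CPM (−2.77). Foxa1 was at −0.86, the protease Tmprss2 at 0.61 and Ndrg1 at 2.20.

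The 7 genes of the secretory machinery had log2 ratios below 0, with a median of −1.23 beside 0.00 for all features, and 3 of them were 4-fold lower, beside 4.23% of all features. The 3 were Spdef (−5.38) and Creb3l4 (−4.18), both regulators of secretory cells with under 15 CPM in DoubleTg, and the disulphide isomerase Pdia6, from 713 to 171 CPM (−2.06). Sec61b of the translocon was at −1.23, the regulator of secretory capacity Xbp1 at −0.89, the chaperone Hspa5 at −0.78 and Ssr4 at −0.54. In DoubleTg, Pdia6 was highest in cluster 7 (1273 CPM) and cluster 12 (1031 CPM). Of 63 relatives of the 10 genes by family name, 11 reached 5 CPM, with a median of 0.55. Of these, 3 were lower and 4 higher by 4-fold, beside 4.23% and 5.61% of all features. Spink5, among the 3 lower, and Lcn2, among the 4 higher, were also counted in the list of other secretory genes. The transglutaminase Tgm3 went from 11 to 11076 UMIs, a log2 ratio of 10.38 (9.54 to 11.38), opposite in direction to Tgm4. The secretoglobins Scgb2b7 (2720 UMIs) and Scgb1b27 (1486 UMIs) fell to 0 UMIs, as Scgb2b27 did.

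For each product, the 2 genes most like it were taken by Pearson's r of log2(CPM + 1) over the 25 DoubleTg clusters, among 6318 genes other than the 10 products, as a description of clusters that share 1 library and its background. Some products were more like each other by this measure, Sbp having 0.99 with Sbpl and 0.98 with Spink1. Among the other genes, Sbp and Sbpl were most like Gucy2g (0.90 and 0.92) and Ibsp (0.89 for both), and Spink1 was most like Wfdc3 (0.90) and Gucy2g (0.88). Msmb was most like Defb50 (0.88) and Smgc (0.84). Pbsn was most like Fgl1 (0.91) and Gsdma (0.89), and Tgm4 and 9530053A07Rik both had C1rb (0.95) and Gm5615 (0.91). For 9530002B09Rik they were Acrbp (0.96) and Fam25c (0.94), for 5430419D17Rik Slc12a2 (0.93) and Timp4 (0.91) and for Scgb2b27 Slc26a4 and Wfdc3 (0.74 each).

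These partners did not all follow their product into TripleTg. Ibsp and Smgc were at 0 UMIs in TripleTg luminal-like cells, Wfdc3 was at −8.95 and Gm5615 at −6.55. The other partners included 3 that were not lower. C1rb was at 93.1 and 103 CPM (0.15, the size of the shift from leaving the products out of the totals), Gsdma at 39.4 and 91.7 CPM (1.22) and Fam25c at 25.3 and 196 CPM (2.95), while their products Tgm4, Pbsn and 9530002B09Rik were at −3.18, −7.35 and −8.71. C1rb and Gsdma were both highest in cluster 7 of DoubleTg, at 1041 and 435 CPM.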

How the data were processed

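Single-cell libraries of DoubleTg and TripleTg prostate tumour tissue (10x Genomics 3′ v3) were analysed, 1 per genotype. The deposited values are raw UMI counts that the authors made with Cell Ranger (6.0.2 in the submitters' notes, 6.1.1 in the header of the DoubleTg matrix) on mm10 with both transgenes. Cells were kept when they had more than 200 but fewer than 7000 genes and when mitochondrial UMIs stayed below 15%: 10598 of 12072 DoubleTg cells (256880958 UMIs) and all 9492 TripleTg cells (229655259 UMIs), whose deposited matrix already met these limits. The libraries shared 30 barcodes. Each library was clustered with scanpy 1.11.5 (2000 variable genes without the 10 products, 20 principal components, 15 neighbours, Leiden resolution 1). Classes were named from marker lists, with thresholds revised after the clusters had been seen, and may differ from the study's. Scrublet called 273 DoubleTg doublets (2.58%) and 0 in TripleTg, where it had not worked; doublets were kept in the main values. UMIs were summed per class and divided by the class total. Intervals are exact Poisson for sums, Clopper-Pearson for shares and conditional binomial for log2 ratios, and a sum of 0 was bounded by 3 counts. Thinning to 5000 UMIs left out 2171 DoubleTg and 1699 TripleTg cells. With 1 library per genotype no test was run. The genes and lists were chosen with earlier results of these data known; the text names all 10 genes, list genes with at least 50 CPM (some items are not reported here; others where a count of 5 or fewer turns on them, chosen after their values were seen) and the 2 genes most like each product. Sums were tested on simulated data. TMM factors came from edgeR 4.0.16.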

Additional observations from a re-analysis of the deposited data

Results flagged for a closer look

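The 10 products made up 4.40% of the UMIs in the 1474 deposited DoubleTg cells outside the limits on genes and mitochondrial UMIs, which no comparison above used. The share was close in the 421 cells at or over the gene limit (4.39%), the 1042 cells at or over the mitochondrial limit (4.43%) and the 71 cells at or under the gene minimum (3.82%). It lay above the 0.942% of the immune-like cells, and below the 7.89% of all kept DoubleTg cells and the 9.83% of the luminal-like cells. Sbp led with 23124 CPM, followed by Msmb with 6790 CPM and Spink1 with 5719 CPM. TripleTg had no deposited cells outside these limits.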

How the results depend on the processing

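All 10 products stayed at a log2 ratio of −2 or lower in each of the 14 alternatives. The median log2 ratio moved from −11.16 to −9.60 in all epithelial-like cells, −9.53 in all kept cells, −9.49 in all deposited cells, −10.42 in luminal-like cells with a hMETtg UMI, −9.02 at 5000 UMIs and −11.73 with the immune-like level subtracted, or −10.79 with that level taken without 1 TripleTg neutrophil-like cell, an alternative added after seeing the data. Spink1 varied most, from −6.61 to −19.65, the latter a bound because no TripleTg UMI was left after the subtraction. TMM factors moved every ratio by −0.09. Of all features, 383 were 4-fold lower, 1211 with no minimum level and 122 with a minimum of 50 CPM.

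The leading product's median share of 59.6% became 74.0% after subtraction of the immune-like level, 69.7% with at least 50 product UMIs, 55.6% without thinning and 54.6% relative to the library mean, also added. The immune-like share of 0.942% in DoubleTg became 0.417% in macrophage-like cells, 0.611% at 5000 UMIs, 0.470% without called doublets, 0.418% without epithelial marker UMIs and 0.510% in cells with at most 10% product UMIs, the last also added. The 0.00520% in TripleTg became 0.00301% in macrophage-like cells, 0.00432% at 5000 UMIs and 0 in the 4 cells without epithelial marker UMIs. The causes were not tested. With the macrophage-like percentile, 20 and 16 pairs were below 0.5 and above 2. Cells high for no product then fell from 36.4% to 24.0%, and those high for Msmb rose from 1063 to 1563. The ratio of Msmb with Tgm4 went from 0.13 to 0.26, and that of Sbp with Pbsn from 0.23 to 0.22. The products had 3 leading clusters at resolution 0.5 and 4 at resolution 2. At resolution 0.5, Pbsn, Tgm4 and 9530053A07Rik led in a cluster of 776 cells, 42.7% of them from cluster 7. They stood there at 7968, 8718 and 16760 CPM, lower than in cluster 7. At resolution 2 they stood at 16871, 16108 and 34287 CPM in a cluster of 260 cells.

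No paired analysis was possible because each genotype had 1 library. Depth limits the TripleTg values: 3 UMIs correspond to 0.0205 CPM in its luminal-like cells.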
